A study of Mus musculus with 18 samples.

Results

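A set of 10 genes that report on stress of the endoplasmic reticulum and on the supply of amino acids were followed through the postnatal mouse ovary: Herpud1, Hspa5, Ddit3, Atf4, Trib3, Xbp1, Dnajb9, Sdf2l1, Asns and Chac1. They were chosen by symbol, as known members of the unfolded protein response and the integrated stress response, with earlier results of these data known. All 10 were among the 30172 genes listed for each library. Messenger RNA of whole ovaries was sequenced in wild type C57BL/6J mice. F1-HHcy females were, per the labels, daughters of dams given a diet with 3% methionine from 4 weeks before mating until the end of lactation, which raises maternal homocysteine (hyperhomocysteinemia, HHcy). F1-Control females were daughters of dams on normal chow. The methods of the study give the diet for a different length of time than the labels do. Sires of both groups ate a normal diet, and the daughters received no treatment of their own, so exposure before birth and through milk cannot be told apart. Ovaries were taken at 3, 7 and 21 days after birth (named Pd3, Pd7 and Pd21), with 3 libraries in each of the 6 groups. The Pd3 and Pd7 libraries carry batch 1 in the labels and the Pd21 libraries batch 2, so each diet comparison lies within a batch while age and batch cannot be told apart at Pd21. Nothing states whether the 3 libraries of a group came from separate animals or litters, and the p-values measure the spread between these libraries.

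When misfolded proteins gather in the endoplasmic reticulum (ER), the sensors IRE1, ATF6 and PERK start the unfolded protein response. IRE1 splices Xbp1 mRNA and cleaved ATF6 enters the nucleus, and together these factors raise chaperones and the machinery of ER-associated degradation. PERK, like the amino acid sensor GCN2, phosphorylates eIF2α, which favours translation of ATF4 and through it of amino acid enzymes, Ddit3 (CHOP) and Trib3. Herpud1 was named for its induction by homocysteine in endothelial cells, and steroid-producing and secreting cells of the ovary depend on a large ER.

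The promoter windows of 5 of these genes hold letters through which one or both branches are known to act, and 4 stretches are given because the results turn on Herpud1, Hspa5 and Asns, with Chac1 beside them for the same amino acid motif. The sequences are from RefSeq on GRCm38.p6, read 5′ to 3′ on the strand of the gene, with the matched motif in capitals. The windows searched ran from 250 bases before to 50 bases after each start, on both strands.
Herpud1: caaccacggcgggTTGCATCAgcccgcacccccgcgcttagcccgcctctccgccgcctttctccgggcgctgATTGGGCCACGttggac
Hspa5: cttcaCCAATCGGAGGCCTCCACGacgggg
Asns: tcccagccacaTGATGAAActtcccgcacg
Chac1: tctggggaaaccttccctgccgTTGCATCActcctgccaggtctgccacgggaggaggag

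The Herpud1 stretch is chr8:94386304-94386393 on the plus strand, from 125 to 36 bases upstream of the start. It holds a C/EBP-ATF response element (CARE, letters TTNCATCA) 112 to 105 bases upstream and a second type of ER stress response element (ERSE-II, letters ATTGG and CCACG with 1 base between) 52 to 42 bases upstream. The Hspa5 stretch, chr2:34772020-34772049 on the plus strand, holds an ER stress response element (ERSE, letters CCAAT and CCACG with 9 bases between) 65 to 47 bases upstream. The Asns stretch, chr6:7693214-7693243 on the minus strand, holds a CARE in reverse orientation, and the Chac1 stretch, chr2:119351027-119351086 on the plus strand, holds a CARE in forward orientation. A CARE also lay 14 to 21 bases after the start of Trib3. Of 32851 promoters of the same length, 0.119% held an ERSE, 0.0365% an ERSE-II, 0.676% an unfolded protein response element (UPRE, letters TGACGTGG) and 3.97% a CARE. All 10 genes had 1 window and 5 of them held at least 1 of these motifs. The letters were not in the windows of Ddit3, Atf4, Xbp1, Dnajb9 and Sdf2l1, which says nothing about factors bound elsewhere.

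Between 33630641 and 39399281 fragments per library lay on genes. Oocyte and germ cell markers summed to between 753 and 2316 FPKM (fragments per kilobase of transcript, scaled to the fragments of the library) in each library. Some libraries stood apart. F1-HHcy Pd3 replicate 3 and F1-HHcy Pd7 replicate 3 were high in 12 immediate early genes, which respond within minutes to handling of cells and tissue: their summed level was 3467 FPKM against 283 to 458 in the other Pd3 libraries, and 479 FPKM against 59.5 to 118 in the other Pd7 libraries. Markers of several cell types also moved with the diet. By the adjusted test, which 3.07% of all genes tested passed at Pd3 in either direction, all 6 erythroid markers were lower in F1-HHcy. Their sums were 780.3 to 1108 against 3914 to 11214 FPKM. On the same day 2 of 6 granulosa markers tested and 3 of 6 stromal markers were higher, with sums of 174 to 485 against 114 to 119.6 FPKM and of 1256 to 1539 against 699 to 940.3 FPKM. Of 12 germ cell markers 2 were higher and 0 lower at Pd3, with sums of 1220.4 to 1780 against 753 to 988 FPKM that did not overlap. The list was split, with 6 positive and 6 negative log2 differences. Of its genes 6 lay above and 4 below all controls, beside 27.9% of all genes that did not overlap in either direction. All 6 theca markers were higher in F1-HHcy at Pd7 by the adjusted test, which 11.9% of all genes tested passed on that day. Their sums were 1136 to 1195 against 216 to 449 FPKM. In the F1-Control libraries of Pd3 and Pd7 only 2 of the 6 reached the 1 FPKM in 3 libraries that the tests required. The others passed this limit at Pd7 with the help of the F1-HHcy libraries, so the count is given as a description. At Pd21 all 6 multiciliated cell markers tested were lower in F1-HHcy by the adjusted test, which 2.23% of all genes tested passed. The list summed to 10.8 to 17.2 against 117 to 385 FPKM. Of its 8 genes, 4 were tested at Pd3 and 3 at Pd7. The high controls alone could bring a gene over the limit at Pd21, so this count is also a description. Oviduct secretory markers summed to 2.67 to 6.72 against 51.9 to 467 FPKM on that day. In whole tissue, fewer cells of a type and less RNA per cell cannot be told apart, and the part of these shifts in the values of the 10 genes was not tested except where a value is given.

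Compared per length, the 10 genes covered a wide span of levels. The ER chaperone Hspa5 (BiP) was the most abundant, with a mean of 373 FPKM over the 18 libraries and 20380 to 69200 fragments behind each value. It was followed by Atf4 (96.3 FPKM), Xbp1 (58.0), Dnajb9 (25.2), Herpud1 (20.1), Sdf2l1 (17.3), Asns (13.7) and Ddit3 (6.09). Trib3 (1.06 FPKM) and Chac1 (0.721 FPKM) lay near the limit of 1 FPKM in 3 libraries that the tests required. The lowest and highest library differed 9.32-fold for Sdf2l1 and 7.75-fold for Trib3, but 1.62-fold for Atf4, whose activity is set mainly by translation.

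**Figure D1:**
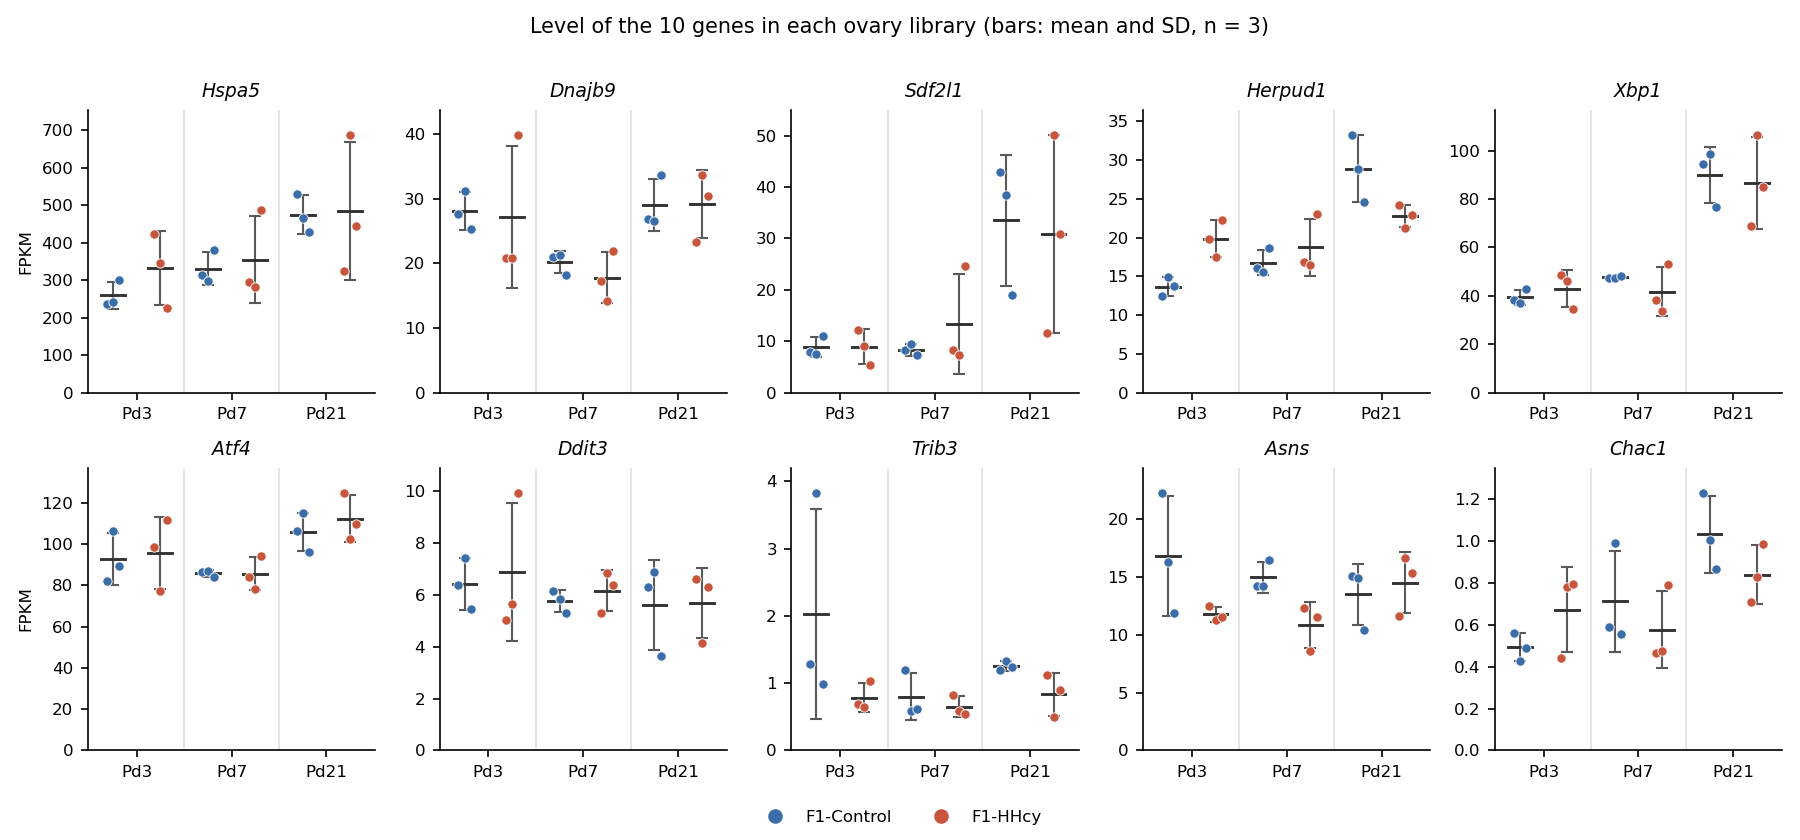
FPKM (linear axis from 0) of each of the 10 genes in the 18 ovary libraries by day, with F1-Control in blue, F1-HHcy in red, and bars for the mean and SD of 3 libraries. Herpud1 is the gene whose F1-HHcy libraries lie above the controls at Pd3 and below them at Pd21, and Xbp1 lies between 68.7 and 106.3 FPKM in every Pd21 library.

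The first question was whether maternal HHcy changed these genes at each age. No member passed an adjusted p of 0.05 in limma, on log2(FPKM + 1), at any age. At Pd3 0 of 9 tested members passed, while 3.07% of all 13277 genes tested did. At Pd7 it was 0 of 8 members against 11.9% of 13299 genes, and at Pd21 0 of 9 members against 2.23% of 13350 genes. These shares of all genes rest on single libraries: leaving 1 out gave 0.00% (without F1-Control replicate 1) to 21.6% (without F1-HHcy replicate 3) at Pd3, 3.78% (without F1-HHcy replicate 1) to 14.1% (without F1-Control replicate 3) at Pd7, and 0.00770% (without F1-Control replicate 3) to 1.4% (without F1-HHcy replicate 3) at Pd21. At an unadjusted p under 0.05 there was 1 member at Pd3 (Herpud1, against 22.4% of genes), 1 at Pd7 (Asns, against 31.5%) and 0 at Pd21 (against 6.85%). A looser criterion, a log2 fold change beyond 0.58 in either direction together with an unadjusted p under 0.05, was met by 0 members on each day, against 9.74%, 16.4% and 5.14% of genes, and limma-voom on recovered fragments also called 0 members on each day. The median log2 difference of the tested members was 0.037 at Pd3, 0.027 at Pd7 and -0.030 at Pd21, beside medians of -0.031, -0.00150 and -0.011 over all genes tested.

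**Figure D2:**
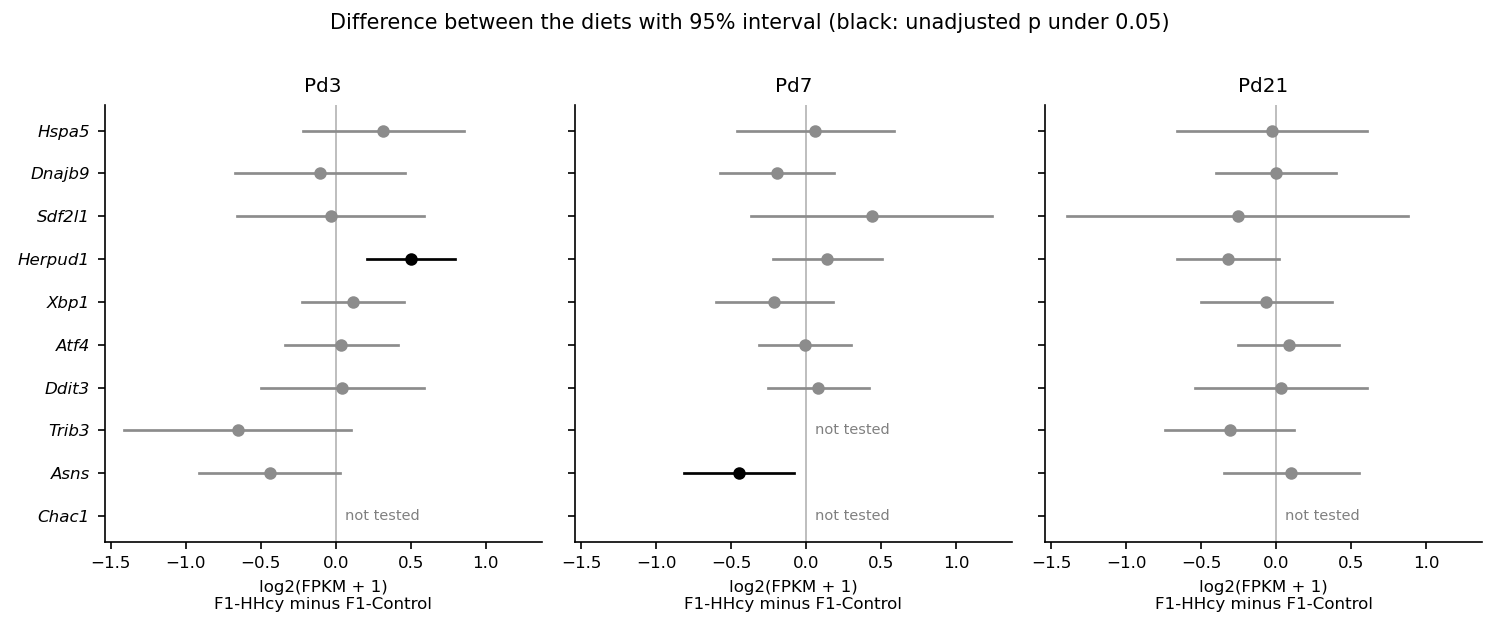
Difference of log2(FPKM + 1) between F1-HHcy and F1-Control for each gene on each day, as the limma estimate with its 95% interval, in black where the unadjusted p is under 0.05. The intervals of Herpud1 at Pd3 and of Asns at Pd7 lie to one side of 0, and Sdf2l1 has the widest interval, from -1.39 to 0.88 at Pd21.

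Herpud1 (chr8:94386429-94395371), an ER membrane protein that gathers the ubiquitin ligase complex of ER-associated degradation, showed the clearest diet pattern. At Pd3 it measured 12.4, 14.9 and 13.7 FPKM in the F1-Control libraries and 19.7, 17.5 and 22.3 FPKM in the F1-HHcy libraries. All 3 F1-HHcy libraries lay above all controls, with means of 19.8 ± 2.40 and 13.7 ± 1.25 FPKM (SD, n = 3), a ratio of 1.45. On the log2 scale the difference was 0.50 (SE 0.13) with an unadjusted limma p of 0.00446 and an adjusted p of 0.0744, and the groups did not overlap for 27.9% of all genes tested. With mitochondrial and hemoglobin genes left out, the log2 difference was 0.48 (limma adjusted p = 0.0780).

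At Pd7 the Herpud1 levels were 16.1, 15.6 and 18.6 FPKM in F1-Control and 16.8, 16.4 and 23.0 FPKM in F1-HHcy. The groups overlapped, and the highest value was the library with high immediate early genes. The difference on the log2 scale was 0.14 (95% interval -0.22 to 0.50). At Pd21 the order turned: F1-Control measured 33.2, 28.9 and 24.6 FPKM and F1-HHcy 24.1, 21.3 and 22.9 FPKM. Each F1-HHcy library lay below each control, the gap between the nearest libraries being narrow, and the groups did not overlap for 10.5% of genes. At that age the log2 difference was -0.32 (SE 0.15, limma adjusted p = 0.813).

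Among the chaperones, Hspa5 (chr2:34772090-34776529), the ER form of HSP70 that also holds the sensors inactive, measured 237, 241 and 300.2 FPKM in F1-Control and 423, 347 and 226 FPKM in F1-HHcy at Pd3. Both remaining F1-HHcy libraries lay above the controls, but replicate 3, the library with the high immediate early genes, was the lowest of the 6. The log2 difference was 0.32 (95% interval -0.22 to 0.86, limma adjusted p = 0.457). At Pd7 Hspa5 measured 313, 298 and 380.4 FPKM in F1-Control and 295, 281 and 488 FPKM in F1-HHcy, where replicate 3 was now the highest. At Pd21 it measured 531, 464 and 428 FPKM in F1-Control and 325, 686 and 444 FPKM in F1-HHcy, so that the F1-HHcy libraries enclosed the controls. The intervals ran from -0.46 to 0.59 at Pd7 and from -0.67 to 0.61 at Pd21.

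Dnajb9 (chr12:44205897-44210068, ERdj4), a co-chaperone that hands misfolded proteins to degradation and restrains IRE1, measured 27.7, 31.2 and 25.4 FPKM in F1-Control and 20.9, 20.8 and 39.8 FPKM in F1-HHcy at Pd3. Replicate 3 again stood alone, this time above the controls while the others lay below them. The log2 difference was -0.11 (95% interval -0.67 to 0.46). At Pd7 it was -0.19 (-0.58 to 0.19) and at Pd21 -0.000586 (-0.40 to 0.40). The F1-HHcy libraries of Pd7 had 17.2, 14.1 and 22.0 FPKM against 18.3 to 21.3 FPKM in the controls. At Pd21 the values were 26.8, 26.6 and 33.6 FPKM in F1-Control and 23.3, 33.7 and 30.5 FPKM in F1-HHcy, which overlapped throughout.

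Sdf2l1 (chr16:17130138-17132383), an ER-resident partner of the BiP cycle, was the most variable of the chaperones. At Pd3 it measured 7.95, 7.50 and 11.0 FPKM in F1-Control and 12.2, 9.14 and 5.37 FPKM in F1-HHcy. At Pd7 the values were 8.22, 9.47 and 7.25 FPKM in F1-Control and 8.28, 7.33 and 24.6 FPKM in F1-HHcy, so that a single library carried the F1-HHcy mean of 13.4 ± 9.71 FPKM. At Pd21 the values were 42.98, 38.5 and 19.0 FPKM in F1-Control and 11.5, 50.01 and 30.8 FPKM in F1-HHcy. The groups overlapped on each day, and the log2 differences were -0.035, 0.44 and -0.26.

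Leaving out F1-HHcy Pd3 replicate 3 altered the calls at Pd3. Without it, 3 of the 8 members then tested passed the adjusted test, and so did 21.6% of all genes. Herpud1 was higher in F1-HHcy by 0.42 (limma adjusted p = 0.0419), Hspa5 was higher by 0.57 (adjusted p = 0.0333) and the log2 difference of Dnajb9 was -0.41 (adjusted p = 0.0397). Leaving out any other single library gave 0 calls among the members at Pd3, and at Pd7 and Pd21 each of the 6 such fits gave 0.

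**Figure D3:**
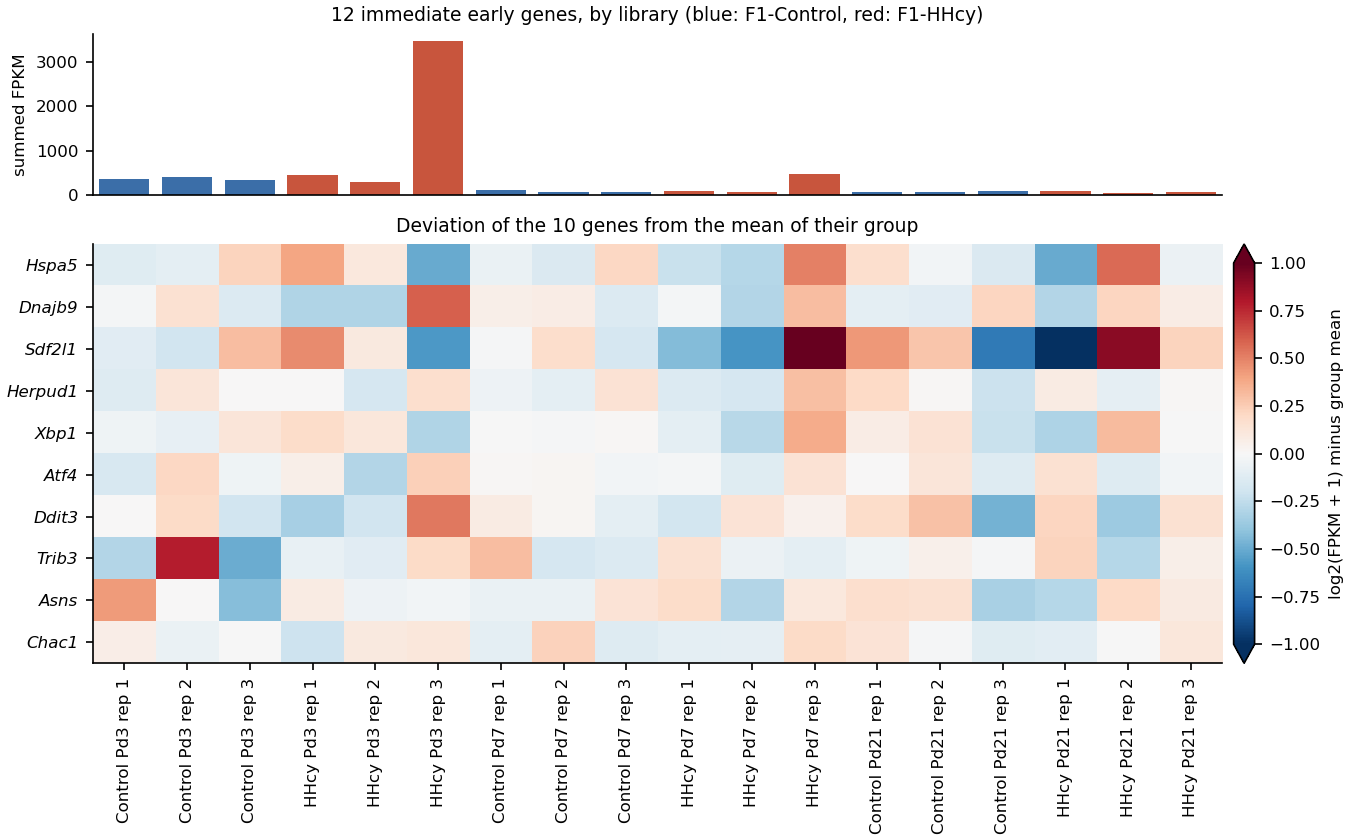
Top, summed FPKM of 12 immediate early genes in each library, where F1-HHcy Pd3 replicate 3 reaches 3467 FPKM. Bottom, deviation of each gene from the mean of its group on the log2(FPKM + 1) scale (red above, blue below, colours end at -1 and 1). In F1-HHcy Pd3 replicate 3 Dnajb9 and Ddit3 are above and Hspa5, Sdf2l1 and Xbp1 below their group mean, while in F1-HHcy Pd7 replicate 3 all of the chaperones and Xbp1 are above it.

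None of the transcription factors of the response passed a diet test or was separated between the diets. Xbp1 (chr11:5520641-5525993), whose mRNA is spliced by IRE1 into the active form, measured 38.1, 37.0 and 42.9 FPKM in F1-Control and 48.5, 46.1 and 34.4 FPKM in F1-HHcy at Pd3. At Pd7 it measured 47.4, 47.3 and 48.1 FPKM in F1-Control, the tightest group of any member, and 38.2, 33.7 and 53.3 FPKM in F1-HHcy. At Pd21 it measured 94.4, 98.7 and 76.6 FPKM in F1-Control and 68.7, 106.3 and 85.0 FPKM in F1-HHcy. The groups overlapped on each day, with log2 differences of 0.11, -0.21 and -0.066. The values sum the spliced and unspliced forms, which a total per gene does not separate.

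Atf4 (chr15:80255184-80257545), the effector of eIF2α phosphorylation, ranged from 77.1 to 124.6 FPKM over all libraries. At Pd3 it measured 82.1, 106.5 and 89.2 FPKM in F1-Control and 98.3, 77.1 and 111 FPKM in F1-HHcy. The log2 difference was 0.037 at Pd3 (95% interval -0.34 to 0.42), -0.00820 at Pd7 (-0.32 to 0.30) and 0.084 at Pd21 (-0.25 to 0.42). At Pd7 it measured 86.5, 87.0 and 84.0 FPKM in F1-Control and 84.0, 78.4 and 94.3 FPKM in F1-HHcy, and at Pd21 106, 115 and 96.3 FPKM in F1-Control and 125, 102 and 110.0 FPKM in F1-HHcy. The diets overlapped on each day.

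Ddit3 (chr10:127290793-127296291), the pro-apoptotic factor CHOP, has more than 1 entry in GENCODE for this build, and which of them its row covers was not established. It measured 6.38, 7.43 and 5.44 FPKM in F1-Control and 5.04, 5.66 and 9.93 FPKM in F1-HHcy at Pd3. The highest value belonged to F1-HHcy replicate 3, and the order of the libraries was close to the reverse of that for Hspa5. At Pd7 it measured 6.14, 5.84 and 5.30 FPKM in F1-Control and 5.30, 6.84 and 6.37 FPKM in F1-HHcy, and at Pd21 6.33, 6.89 and 3.65 FPKM in F1-Control and 6.63, 4.13 and 6.32 FPKM in F1-HHcy. Its log2 difference was 0.044 at Pd3, 0.081 at Pd7 and 0.031 at Pd21, with overlap on each day.

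Trib3 (chr2:152337425-152344060), a pseudokinase that ATF4 and CHOP induce and that damps ATF4, was near the limit of testing, with 39 to 281 fragments per library. At Pd3 it measured 1.29, 3.82 and 0.986 FPKM in F1-Control and 0.686, 0.639 and 1.03 FPKM in F1-HHcy. One control library set the control mean of 2.03 ± 1.56 FPKM, and the groups overlapped by a small margin (log2 difference -0.65, SE 0.32, limma adjusted p = 0.278). At Pd21 it measured 1.19, 1.33 and 1.23 FPKM in F1-Control and 1.12, 0.493 and 0.891 FPKM in F1-HHcy, with no overlap, as for 10.5% of genes (log2 difference -0.31, 95% interval -0.74 to 0.12). At Pd21 Trib3 passed the filter on low values only with the help of its controls, all of which lay above 1 FPKM, against 1 of the F1-HHcy libraries. At Pd3 it passed narrowly, through the controls at 1.29 and 3.82 FPKM and the F1-HHcy library at 1.03 FPKM. Of the Pd3 fits without 1 library, only 3 could test it. At Pd7, where it was not tested, it lay between 0.539 and 1.20 FPKM.

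Chac1 (chr2:119351242-119354326), which breaks down glutathione and is a sensitive target of ATF4, rested on 24 to 75 fragments per library and was tested in none of the comparisons of 6 libraries. Its values ran from 0.427 to 0.795 FPKM at Pd3, from 0.467 to 0.991 at Pd7 and from 0.707 to 1.23 at Pd21, and the diets overlapped on each day.

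Asns (chr6:7675165-7693209) is asparagine synthetase and a standard readout of amino acid shortage. Apart from Herpud1 it was the only member with an unadjusted limma p under 0.05 in a diet comparison. That was at Pd7, where 31.5% of all genes tested had one, and it did not pass the adjusted test. At Pd7 it measured 14.2, 14.2 and 16.5 FPKM in F1-Control and 12.3, 8.56 and 11.6 FPKM in F1-HHcy. All F1-HHcy libraries lay below all controls, with means of 10.8 ± 1.98 and 15.0 ± 1.33 FPKM (SD, n = 3), a ratio of 0.722. This gave a log2 difference of -0.45 (SE 0.16) with an unadjusted limma p of 0.0210 and an adjusted p of 0.0983, and the groups did not overlap for 39.0% of genes at Pd7. At Pd3 it measured 22.2, 16.3 and 11.9 FPKM in F1-Control and 12.5, 11.3 and 11.5 FPKM in F1-HHcy. The control libraries spread widely and the lowest of them fell among the F1-HHcy libraries, with a log2 difference of -0.44 (95% interval -0.91 to 0.031). At Pd21 the levels were 15.1, 14.9 and 10.5 FPKM in F1-Control and 11.6, 16.6 and 15.3 FPKM in F1-HHcy, with a log2 difference of 0.10 (-0.35 to 0.55).

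The next comparison asked whether the diet difference itself changed with age, fitted on all 18 libraries. Herpud1 was the only member to pass, between Pd21 and Pd3, where 4.59% of 14607 genes passed. Its diet difference was lower at Pd21 than at Pd3 by a log2 difference of -0.83 (SE 0.21, 95% interval -1.26 to -0.39, limma adjusted p = 0.0273). F1-HHcy lay above F1-Control in all libraries at Pd3 and below in all libraries at Pd21. The Pd21 libraries form batch 2, so a change with age and a change between batches cannot be told apart, and the controls of Pd21 were also those with multiciliated and oviduct markers. In the fits without 1 library the estimate ran from -0.93 to -0.72 and passed in 5 of 12 (limma adjusted p from 0.0287 to 0.0955). The fits in which it did not pass left out F1-Control Pd3 replicate 1 or 3, F1-HHcy Pd3 replicate 1, F1-Control Pd21 replicate 1 or 2, or F1-HHcy Pd21 replicate 2 or 3.

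Between neighbouring ages the change of the Herpud1 diet difference was -0.36 from Pd3 to Pd7 (limma adjusted p = 0.430) and -0.46 from Pd7 to Pd21 (adjusted p = 0.228). No member passed in these 2 comparisons, where 0.411% and 3.89% of genes passed. At an unadjusted p under 0.05 there were 0 members from Pd3 to Pd7 (against 13.8% of genes) and 1, Herpud1, from Pd7 to Pd21 (against 19.4%) and from Pd3 to Pd21 (against 16.1%). Asns had estimates of -0.00481 from Pd3 to Pd7, 0.55 from Pd7 to Pd21 and 0.54 from Pd3 to Pd21, none of which passed.

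With age, 1 member changed within batch 1. In F1-Control ovaries Dnajb9 fell from 28.1 ± 2.93 FPKM at Pd3 to 20.2 ± 1.68 FPKM at Pd7 (SD, n = 3). The Pd3 values of 27.7, 31.2 and 25.4 FPKM all lay above the Pd7 values of 21.0, 21.3 and 18.3 FPKM. The log2 difference was -0.46 (SE 0.13, limma adjusted p = 0.0464), where 14.5% of 13336 genes passed. The adjusted p was 0.113 after median-ratio scaling, 0.0808 without the filter on low values, 0.0599 in limma-voom and 0.176 with all libraries in 1 model, and leaving out 1 library kept the call only without F1-Control Pd7 replicate 2, where it was 0.0387.

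Xbp1 and Herpud1 were higher at Pd7 than at Pd3 in every F1-Control library but did not pass (log2 differences 0.27 and 0.27, limma adjusted p = 0.142 and 0.187), and the groups did not overlap for 38.6% of genes. Hspa5 differed by 0.35 (95% interval -0.036 to 0.74). In F1-HHcy ovaries the adjusted limma test called 0 members and 0 of 13257 genes between Pd3 and Pd7, while 23.5% of genes and 0 members had an unadjusted p under 0.05, and limma-voom also called 0 members. The log2 difference was -0.54 for Dnajb9 (95% interval -1.18 to 0.098), -0.087 for Herpud1 and 0.095 for Hspa5. Without the libraries high in immediate early genes, the Hspa5 difference turned to -0.41.

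The order of the 6 groups can be read from the same values. For Herpud1 it ran from F1-Control Pd21 (28.9 FPKM) through F1-HHcy Pd21 (22.8), F1-HHcy Pd3 (19.8), F1-HHcy Pd7 (18.7) and F1-Control Pd7 (16.7) to F1-Control Pd3 (13.7). Only the top and the bottom group were separated from their neighbours, and the 4 groups between them overlapped in turn. For Xbp1, both Pd21 groups (89.9 and 86.7 FPKM) were separated from the younger groups, which lay between 39.3 and 47.6 FPKM and overlapped in turn. The neighbouring groups of Hspa5, Ddit3, Atf4, Dnajb9, Sdf2l1, Asns and Chac1 all overlapped, and age and batch cannot be told apart for the Pd21 levels. For Asns the controls of Pd3 and Pd7 had the highest means (16.8 and 15.0 FPKM), and the F1-HHcy ovaries of the same days the lowest (11.8 and 10.8 FPKM).

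The members fell into different patterns from library to library. Over the 18 libraries, which share batches, ages and diets, Xbp1 and Sdf2l1 had a Pearson r of 0.922 on log2(FPKM + 1), Hspa5 and Sdf2l1 0.895 and Hspa5 and Xbp1 0.858. With each value taken as its deviation from the mean of its group, these were 0.956, 0.884 and 0.931. Dnajb9 did not follow them, with correlations of deviations of -0.057 with Hspa5 and -0.020 with Xbp1. Herpud1 deviated more like Atf4 (0.725) and Ddit3 (0.523) than like Hspa5 (0.198) or Xbp1 (0.228). Ddit3 and Hspa5 deviated in opposite directions (-0.54), and Asns had no deviation correlation above 0.434 with any other member. These are descriptions over libraries that also differ in cell content. The deviations of Hspa5 had an r of 0.830 with those of summed granulosa markers and of 0.858 with those of 10 summed heat shock genes. For Sdf2l1 these were 0.660 and 0.832, and for Xbp1 0.737 and 0.771. The deviations of Dnajb9 and Herpud1 had an r of 0.762 and 0.658 with summed immediate early genes. What lies behind these correlations was not tested. For Herpud1 the r of the levels themselves was 0.812 with granulosa, 0.748 with multiciliated and -0.780 with erythroid markers. The r of its deviations was 0.307, 0.377 and -0.267 with these and -0.654 with leukocyte markers, and the part of these cell types in the Herpud1 differences was not tested.

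**Figure D4:**
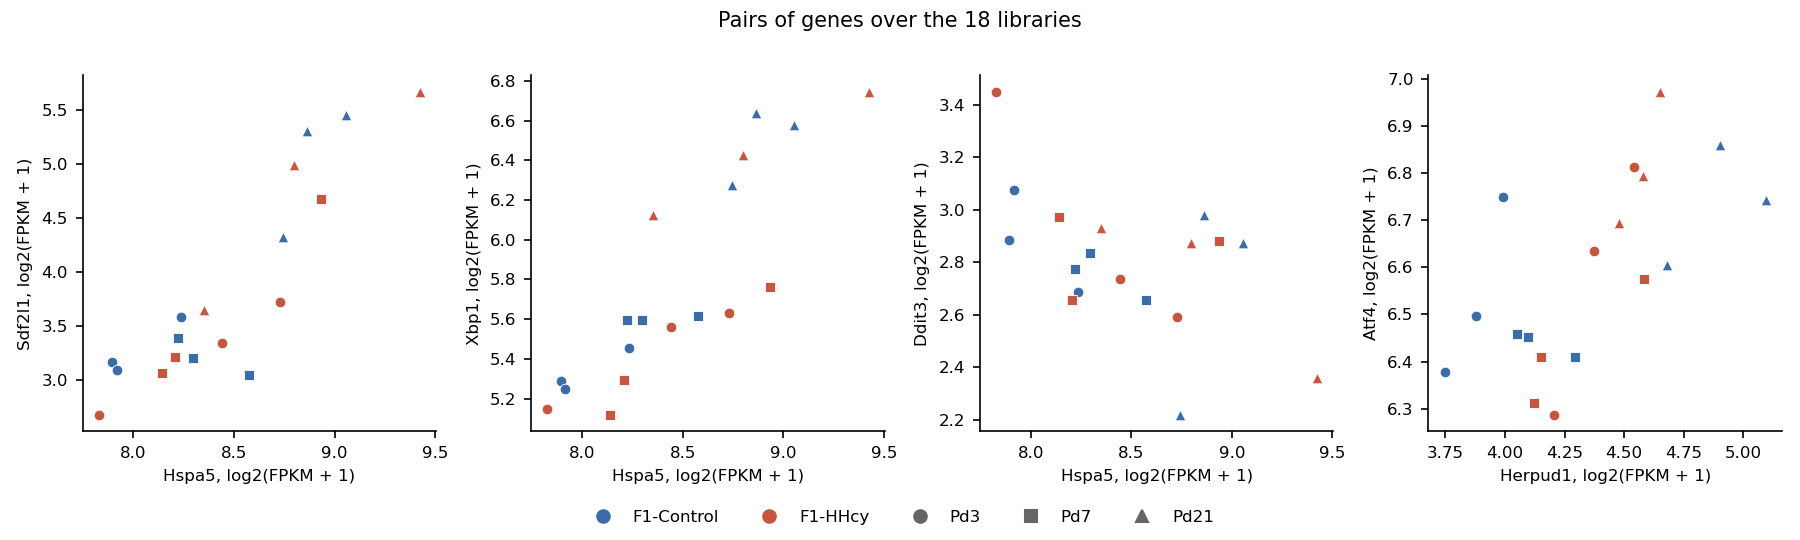
Pairs of genes on the log2(FPKM + 1) scale, 1 point per library (colour: diet, shape: day). Hspa5 is high in the libraries high in Sdf2l1 (r = 0.895) and Xbp1 (r = 0.858) and low in those high in Ddit3 (r = -0.547), and Herpud1 and Atf4 (r = 0.666) scatter more.

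Among 14607 genes, those whose log2(FPKM + 1) was most like Hspa5 over the 18 libraries were Pdia4 (r = 0.972), Stt3a (0.949), Creld2 (0.946), Stc1 (0.945) and G3bp1 (0.941). Pdia4 is a disulfide isomerase of the ER and Stt3a a catalytic subunit of oligosaccharyltransferase. The genes most like Herpud1 were Slc35e4 (0.959), Lrrc10b (0.907), Nucb1 (0.903), Vwa2 (0.902) and Ccdc74a (0.901), and Nucb1 is a calcium-binding protein of the Golgi. Those most like Asns were Fen1 (0.861), Bola3 (0.833), Adk (0.808), Cwc15 (0.766) and Snrpd3 (0.759), a set with lower correlations.

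The pathways around the members were read from lists of other genes. Of 20 ER chaperones and folding enzymes, the neighbours of Hspa5, 0 passed the adjusted test in limma on any day. At Pd3 17 of the 20 had a positive log2 difference and the median was 0.17, beside -0.031 over all genes. The sum of the 20 at Pd3 ran from 1879 to 2945 FPKM in F1-HHcy and from 2091 to 2208 FPKM in F1-Control, so that the F1-HHcy libraries enclosed the controls. An unadjusted p under 0.05 was found for 3 of the 20 at Pd3, 4 at Pd7 and 0 at Pd21. Over all genes the shares under this threshold were 22.4% at Pd3, 31.5% at Pd7 and 6.85% at Pd21. Dnajc3, a co-chaperone of BiP, had 23.3 FPKM in F1-HHcy and 15.5 in F1-Control (log2 difference 0.55, limma adjusted p = 0.0560), and the disulfide isomerase Txndc5 had 101 and 72.5 FPKM (0.47, adjusted p = 0.0823). At Pd7 the smallest p-values were those of the oxidase Ero1b (-0.58, adjusted p = 0.0557) and the exchange factor Sil1 (-0.46, adjusted p = 0.101), and at Pd21 those of the same genes (0.23 and -0.12, with limma adjusted p = 1.00 for each). The medians were 0.047 and -0.023 on these days.

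Of 17 genes of ER-associated degradation, the setting of Herpud1, 0 passed on any day, with medians of 0.00188, 0.065 and 0.00584. At an unadjusted p under 0.05 there were 0, 1 and 0, beside 22.4%, 31.5% and 6.85% of all genes. The leading genes were Edem1 (0.24) and Ubxn4 (-0.19) at Pd3, the ligase Syvn1 (0.58) and the ATPase Vcp (-0.41) at Pd7, and Edem3 (0.17) and Derl3 (0.47) at Pd21. Of 17 sensors and transducers, 15 were tested at Pd3 and 0 passed in limma (5 at an unadjusted p under 0.05, as for 22.4% of all genes), led by the heme-regulated kinase Eif2ak1 (-0.56, limma adjusted p = 0.0581) and the protease Mbtps2 (0.42, adjusted p = 0.0907). Eif2ak1 is abundant in erythroid cells, whose markers were lower in the same libraries, and the part of these cells in its difference was not tested. At Pd7 1 of 16 passed, while 11.9% of all genes did: the membrane-bound factor Creb3l3, at 0.11, 0.0742 and 0.371 FPKM in F1-Control and 1.28, 1.25 and 1.85 FPKM in F1-HHcy (log2 difference 1.05, limma adjusted p = 0.00673). Creb3l3 reached the filter on low values only through the F1-HHcy libraries, so the count is given as a description. At Pd21 0 of 16 passed, and Atf6b (-0.20) and Creb3l1 (-0.41) had the smallest p-values.

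Asns and Chac1 act among other genes downstream of ATF4. Of 18 ATF4 regulators and stress effectors tested at Pd7, 2 rose and 1 fell, while 11.9% of all genes passed. The large neutral amino acid transporter Slc7a5 rose from 20.8 to 35.8 FPKM (log2 difference 0.77, limma adjusted p = 0.0216) and the lipoprotein receptor Vldlr from 3.14 to 6.71 FPKM (0.98, adjusted p = 0.0392), while the serine and alanine transporter Slc1a4 fell from 5.87 to 2.81 FPKM (-0.83, adjusted p = 0.0232). Of 8 genes of serine, proline and mitochondrial one-carbon synthesis, 2 fell at Pd7, against the same 11.9% in either direction over all genes. Phgdh, the first enzyme of serine synthesis, fell from 77.7 to 44.0 FPKM (-0.81, limma adjusted p = 0.0134) and Pycr1, the last enzyme of proline synthesis, from 4.55 to 2.57 FPKM (-0.63, adjusted p = 0.0245). Pycr1 (-0.55), Shmt2 (-0.32), Slc1a4 (-0.55) and the leucine sensor Sesn2 (-0.53) had the smallest p-values of these lists at Pd3. There 0 genes of either list passed in limma. An unadjusted p under 0.05 was found for 6 of 19 effector and 3 of 8 synthesis genes, beside 22.4% of all genes. The 19 effector genes were split at Pd3, with 9 positive and 10 negative differences. The sum of the effector list at Pd3 was 261 to 363 FPKM in F1-HHcy and 223 to 255 FPKM in F1-Control. At Pd7 the sums overlapped (258 to 296 and 237 to 262 FPKM). At Pd21 F1-HHcy was lower, at 296 to 321 against 331 to 371 FPKM.

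Of 20 cytosolic aminoacyl-tRNA synthetases, several of them ATF4 targets, 0 passed in limma on any day and 5, 5 and 0 had an unadjusted p under 0.05, beside 22.4%, 31.5% and 6.85% of all genes. At Pd7 15 of the 20 had a negative difference, with a median of -0.19 beside -0.00150 over all genes. Their sums on that day overlapped, at 577 to 661 FPKM in F1-HHcy and 639 to 753 FPKM in F1-Control. Hars (-0.46, limma adjusted p = 0.0558) and Farsb (-0.45, adjusted p = 0.0739) led at Pd7, Gars (-0.29) and Mars1 (-0.37) at Pd3, and Vars (-0.29) and Wars (-0.18) at Pd21. At Pd21 0 of 18 effectors and 0 of 8 synthesis genes passed, led by Stc2 (-1.23, limma adjusted p = 0.164), Cebpb (-0.51), Aldh18a1 (-0.36) and Psat1 (-0.33). At Pd7, where 11.9% of all genes passed the adjusted test, 6 of 12 germ cell markers were lower in F1-HHcy and 2 higher. Their sums were 959.5 to 1455 FPKM in F1-HHcy and 1443 to 2316 FPKM in F1-Control. Surface epithelium markers summed to 211 to 402 against 482 to 831 FPKM, with 4 of 6 lower by the same test. The deviations of Asns had an r of -0.170 with germ cell and -0.494 with surface epithelium markers. With stromal and endothelial markers the r was -0.721 and -0.520, and with granulosa markers 0.436. The part of these cell types in the values of Asns and of the lists was not tested.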

How the data were processed

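The authors deposited 1 value for each of 30172 genes per library, read here as FPKM from the values, since the step that made them is not given in the sources used here. The submitters' processing notes name FastQC 0.11.9, Trimmomatic 0.39, STAR 2.7.9a, featureCounts 2.0.1, DESeq2 1.36.0 and GRCm38. Whole fragments were recovered for 27294 of 27294 genes above 0 in at least 3 libraries (tolerance 0.02) with 1 length per gene. FPKM is a share of each library, so abundant transcripts lower all others. limma 3.58.1 (R 4.3.3, trended eBayes) was run on log2(FPKM + 1) for genes at 1 FPKM in at least 3 libraries, with Benjamini-Hochberg adjustment over all genes tested, on the 6 libraries of a comparison or, between days, on all 18. Fold changes are on this scale and understate low genes. The text names all 10 members, for each pathway list and day up to 4 genes with an adjusted p under 0.05 or otherwise the 2 with the smallest p, and the 5 genes most like Herpud1, Hspa5 and Asns. The members and lists were chosen with earlier results of these data known. Replicates differed by more than sampling noise (chi-square per degree of freedom of at least 11.4). Deviations of same-numbered libraries of Pd3 and Pd7 had an r of 0.119, 0.244 and 0.260 in F1-Control and of -0.018, 0.119 and 0.081 in F1-HHcy. The labels do not say whether replicate numbers mark litters. The age tests were run without pairing, apart from the fit with the replicate number as a block.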

Additional observations from a re-analysis of the deposited data

Results flagged for a closer look

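The diet difference of Herpud1 passed the test of a change between Pd21 and Pd3. The test of the change itself gave a log2 value of -0.83, with F1-HHcy above F1-Control in 3 of 3 libraries at Pd3 and below in 3 of 3 at Pd21. Under the other alternatives, apart from leaving out libraries, the limma adjusted p ran from 0.0273 to 0.0470. Leaving out 1 library kept the call in 5 of 12 fits, with limma adjusted p up to 0.0955. The Pd21 libraries are batch 2, so age and batch cannot be told apart.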

How the results depend on the processing

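With 3 libraries per group the intervals of single members are wide, and F1-HHcy libraries of Pd3 and Pd7 each hold 1 library high in immediate early genes. Where a reason is not stated, the cause was not tested. The count of called members stayed at 0 for the diet comparisons under pseudocount, filter, scaling, voom, block and 18-library alternatives, and that for the change between Pd21 and Pd3 at 1. Without the filter, with median-ratio scaling, with the unadjusted p and fold criterion, in limma-voom and with all 18 libraries the age count in F1-Control was 0 instead of 1. In fits without 1 library the number of called members ran from 0 to 3 for the diet at Pd3, from 0 to 1 for age in F1-Control and from 0 to 1 for the change of the diet difference between Pd21 and Pd3. The fit with the replicate number as a block kept 1 age call in F1-Control and changed no call among the members (Herpud1 at Pd3 0.50, adjusted p = 0.174), although the count of all genes called at Pd3 went from 408 to 1. Same-numbered F1-HHcy and F1-Control libraries had correlations of deviations from -0.314 to 0.085. Deviations within groups of 3 libraries sum to 0, so these values cannot decide whether same-numbered libraries share more than a number.

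Directions that turned belong to members that did not pass in the main fit of that comparison. Dnajb9 at Pd3 passed without F1-HHcy replicate 3 (-0.41, limma adjusted p = 0.0397) but turned to 0.044 without F1-HHcy replicate 2. At Pd21, median-ratio scaling gave 0.029 for Hspa5 and 0.057 for Dnajb9, and limma-voom gave 0.000479 for Dnajb9. Without the libraries high in immediate early genes, an alternative chosen after seeing the data, the age difference of Hspa5 in F1-HHcy was -0.41. Without mitochondrial and hemoglobin genes, the change of the Asns diet difference from Pd3 to Pd7 was 0.00763. Leaving out 1 library gave log2 differences at Pd3 from -0.080 to 0.18 for Atf4, -0.22 to 0.21 for Ddit3, -0.41 to 0.044 for Dnajb9 and -0.27 to 0.25 for Sdf2l1. At Pd7 the ranges were -0.079 to 0.052 for Atf4, -0.00823 to 0.22 for Herpud1, -0.19 to 0.21 for Hspa5 and -0.077 to 0.73 for Sdf2l1. At Pd21 they were -0.060 to 0.24 for Asns, -0.20 to 0.21 for Ddit3, -0.11 to 0.15 for Dnajb9, -0.31 to 0.22 for Hspa5, -0.71 to 0.30 for Sdf2l1 and -0.22 to 0.088 for Xbp1. They were -0.16 to 0.29 for the age difference of Hspa5 in F1-HHcy and -0.22 to 0.21 for the change of the Asns diet difference from Pd3 to Pd7.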
